A study of Mus musculus with 4 samples.

Results

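The Golgi glycosyltransferase genes of regulatory T (Treg) cells were taken as the protein-coding genes whose mouse symbol starts with *St3gal*, *St6gal* (which takes in *St6galnac*), *St8sia*, *B3gnt*, *B3galt*, *B4galt*, *Fut*, *Galnt*, *Gcnt* or *Mgat* and whose counts summed over the libraries to at least 10. Of the 47729 genes in the count table, 22368 had a count, 81 carried these names and 58 met the minimum. Of the other 23, 14 had 0 counts in every library and 9 had fewer than 10 counts in all. Counts were available for 4 libraries of sorted splenic Treg cells from C57BL/6 mice, 2 labelled WT (*Tfrc* +/+ *Foxp3* YFP-Cre/+) and 2 labelled TfR1 cko, written here as TfR1 cKO (*Tfrc* fl/fl *Foxp3* YFP-Cre/+), with totals of 10841939 to 17278448 counts. TfR1, the product of *Tfrc*, takes up transferrin-bound iron, and the comparison asked which transcripts depend on it in Treg cells. Both genotypes carried the Cre allele, which is driven from the X-linked *Foxp3* locus and marks the cells that express it with YFP, and the methods place such heterozygous mice among females, in which only a portion of the Treg cells express Cre. The labels name the spleen as the tissue and the methods sort CD25+YFP+ cells, while legends of the study give spleens and lymph nodes and a YFP+CD4+ sort. Mice other than the *Foxp3* YFP-IRES-Cre/y knockouts were 6 to 8 weeks old per the reporting summary, whether animals were pooled was not given, and the p-values below measure the spread between 2 libraries per genotype.

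Glycosyltransferases of the Golgi build the sugar chains of secreted and surface proteins and lipids by passing single sugars from nucleotide donors onto a growing chain. The GALNT enzymes start mucin-type O-glycans, the MGAT enzymes set the branching of N-glycans, galactosyl- and N-acetylglucosaminyltransferases extend the arms, and sialyl- and fucosyltransferases cap them. On T cells the capped ends decide which selectins, galectins and siglecs can bind.

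The count of *Tfrc* did not separate the genotypes, at 50.8 and 54.1 CPM (read counts relative to library size, scaled by TMM) in WT and 56.1 and 48.3 CPM in TfR1 cKO (log2 fold change -0.01, standard error 0.16, adjusted p = 0.999 in edgeR's quasi-likelihood test), so the second group is named by its label throughout; which exons the reads came from cannot be seen in gene counts. The Treg markers *Foxp3* (114 to 194 CPM) and *Il2ra* (853 to 1151 CPM) were present in every library. All 6 Treg markers had a log2 fold change below 0 (median -0.43), and in 5 of them both TfR1 cKO libraries lay below both WT libraries, as in 18.9% of all tested genes. *Ctla4*, an inhibitory receptor of Treg cells named after its values were seen, was called lower at 407 and 427 CPM in WT and 241 and 235 CPM in TfR1 cKO (log2 fold change -0.81, standard error 0.13, unadjusted p = 0.0014, adjusted p = 0.911 in edgeR and 0.0057 in DESeq2). In WT replicate 1 the summed level of 14 macrophage and myeloid markers reached 971 CPM, and in TfR1 cKO replicate 2 it reached 3118 CPM, while WT replicate 2 had 38.2 CPM and TfR1 cKO replicate 1 had 44.1 CPM. All 14 of these markers and all 8 proliferation markers (summed 1244 and 1174 CPM against 439 and 479 CPM) were higher in the first pair of libraries than in both others. *Csf1r*, the macrophage growth factor receptor, ranged from 1.97 to 371 CPM. Erythroid markers summed to 16.9 to 277 CPM and B cell markers to 31.8 to 44.7 CPM. Plasma cell, CD8 T, NK, dendritic and platelet markers summed to at most 14.2 CPM each. In bulk RNA, fewer cells of a type and less RNA per cell cannot be told apart.

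Of the 58 genes, 48 passed the filter on low counts and were tested among 12536 genes, and 8 were called at the limits the study used (an unadjusted p under 0.05 with a log2 fold change of 0.5 or more in either direction). The 4 called higher in the TfR1 cKO libraries were *St6galnac2*, *Fut11*, *Galnt10* and *B3galtl*, and the 4 called lower were *St6gal1*, *St6galnac4*, *B3gnt5* and *B3galt5*. This is 8.33% of the tested glycosyltransferases in each direction, where 1.60% of all tested genes were called higher (200 genes) and 2.48% lower (311 genes). The group was chosen with earlier results of these data known, and *St6galnac2*, *St6gal1* and *B3gnt5* were named in that choice. The shares are therefore no test of the group. After Benjamini-Hochberg adjustment edgeR called 0 of the 12536 genes (0%), with a lowest adjusted p of 0.266 and 655 genes at an unadjusted p under 0.05, and the 8 called glycosyltransferases had an adjusted p of 0.911 each. DESeq2 called 6 of 11766 genes higher at an adjusted p under 0.05 (0.0510%) and 28 lower, and *St6galnac2* was the only one of the 45 glycosyltransferase genes with an adjusted p in DESeq2 that it called. Both TfR1 cKO libraries lay above both WT libraries for 11 of the 48 genes (22.9%, against 16.0% of all genes) and below both for 10 (20.8%, against 18.9%).

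**Figure D1:**
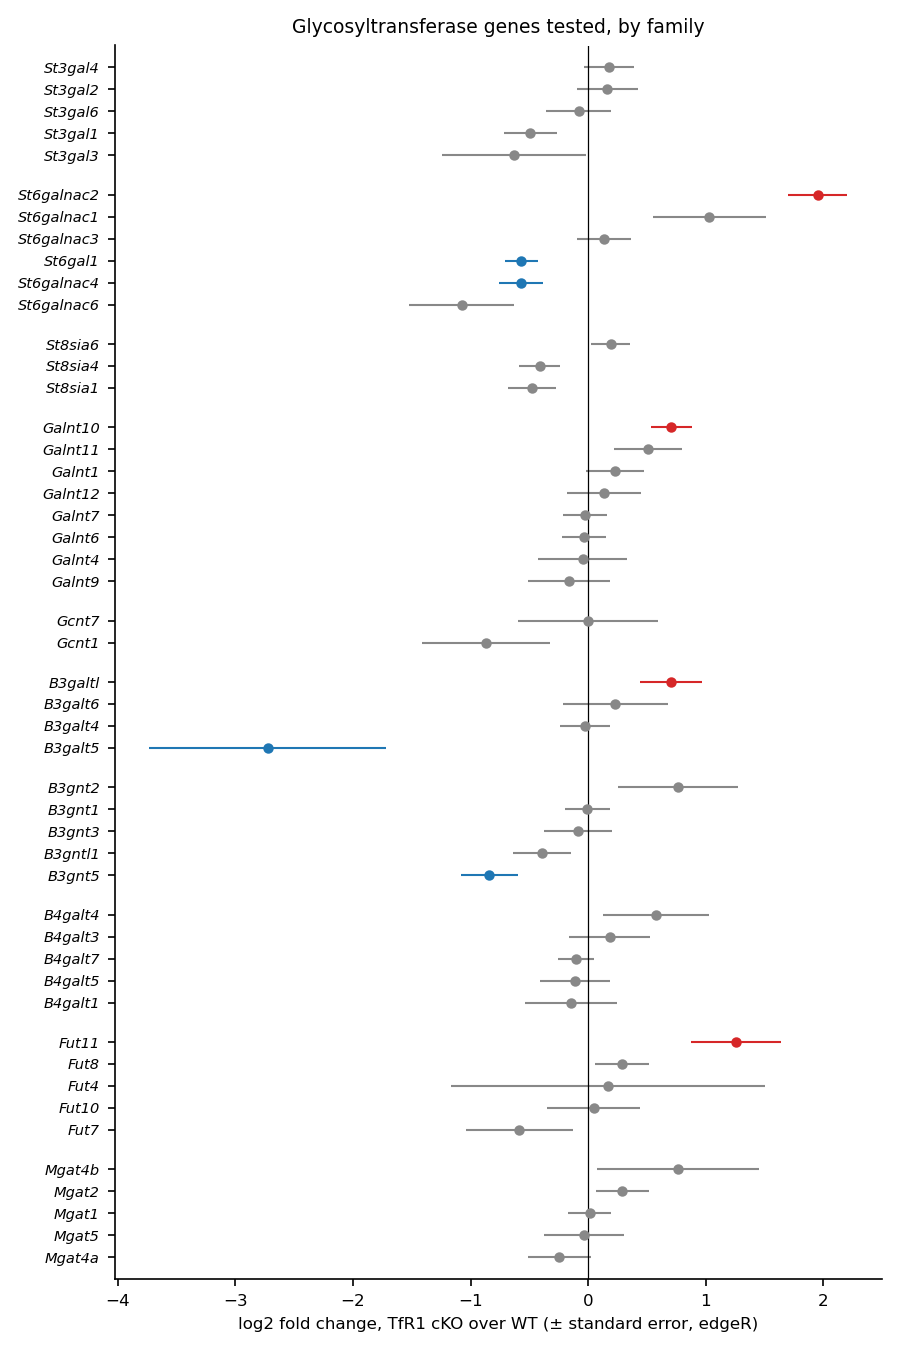
Log2 fold change of TfR1 cKO over WT (x axis) for the 48 tested glycosyltransferase genes (y axis), grouped by family and sorted within each. Points are edgeR estimates from 2 libraries per genotype, bars are 1 standard error, and red and blue mark the 4 genes called higher and the 4 called lower at an unadjusted p under 0.05. *St6galnac2* at 1.95 and *B3galt5* at -2.72 are the ends of the range, and *B3galt5* has a far wider bar.

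The 48 genes lay on both sides of 0. The median log2 fold change was -0.02 (quartiles -0.28 and 0.23), beside 0.01 over all tested genes (quartiles -0.20 and 0.23), with 22 genes above 0 and 26 below. In 25 of the 48 the change was smaller than 0.25 on the log2 scale, and in 17 (35.4%) it was at least 0.5, against 20.3% of all tested genes. The 14 tested sialyltransferases had a median of -0.25 and the 34 other genes a median of 0.00, with 3 and 5 genes called, where 4.08% of all tested genes were called in either direction; the difference between these medians was not tested.

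*St6galnac2* had the smallest unadjusted p of the glycosyltransferases in edgeR. Its product adds sialic acid to the first sugar of mucin-type O-glycans. The gene was counted at 12.5 and 9.56 CPM in WT and 38.2 and 47.4 CPM in TfR1 cKO (153, 102, 662 and 649 reads). Both TfR1 cKO libraries were far above both WT libraries, with a mean 3.87 times higher. The log2 fold change was 1.95 (standard error 0.25, unadjusted p = 4.8e-04, adjusted p = 0.911 in edgeR), and DESeq2 gave 1.96 with an adjusted p of 1.7e-06. With 1 library left out it ran from 1.77 to 2.18 with unadjusted p from 6.3e-04 to 0.0029. Between the libraries with few macrophage markers alone, TfR1 cKO replicate 1 was 3.99 times WT replicate 2, a ratio with no test that was added after the data were seen.

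*St6galnac2* lies at chr11:116676703-116695782 (RefSeq positions on GRCm38.p6). The next glycosyltransferase gene, *St6galnac1*, begins 69.2 kb further on at chr11:116765025-116775507 and encodes the enzyme that makes sialyl-Tn by capping the first O-glycan sugar. *St6galnac1* was scarce, at 1.15 and 1.59 CPM in WT and 3.11 and 2.48 CPM in TfR1 cKO. Its groups did not overlap, but its log2 fold change of 1.03 (standard error 0.48) had an unadjusted p of 0.083 (adjusted p = 0.911, edgeR).

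The genes around this pair, chosen after values were seen, did not all move alike. *BC018473*, 56.4 kb from *St6galnac2* and between both sialyltransferases, had 43.5 and 30.0 CPM in WT and 97.6 and 71.1 CPM in TfR1 cKO (log2 fold change 1.20, standard error 0.26, unadjusted p = 0.0053, adjusted p = 0.911 in edgeR and 0.022 in DESeq2). *Gm11735*, 42.0 kb away, had 6, 7, 25 and 18 reads (log2 fold change 1.26, unadjusted p = 0.096). In the older gene models of GENCODE vM1 (mm9) it shares 260 bases of exon with *St6galnac1* on the same strand. Its RefSeq span (chr11:116737804-116751558) ends before that of *St6galnac1* begins. *Snhg16* was at 0.35 (unadjusted p = 0.43), and *Rhbdf2*, *Ube2o*, *Jmjd6* and *Mettl23* lay between -0.24 and 0.14. The exons of *Snhg16* share 497 bases with *St6galnac2* on the opposite strand in GENCODE vM1, but the RefSeq spans are 0.905 kb apart. The annotation and strand used in counting were not given, so whether any reads were shared between these genes cannot be told.

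**Figure D2:**
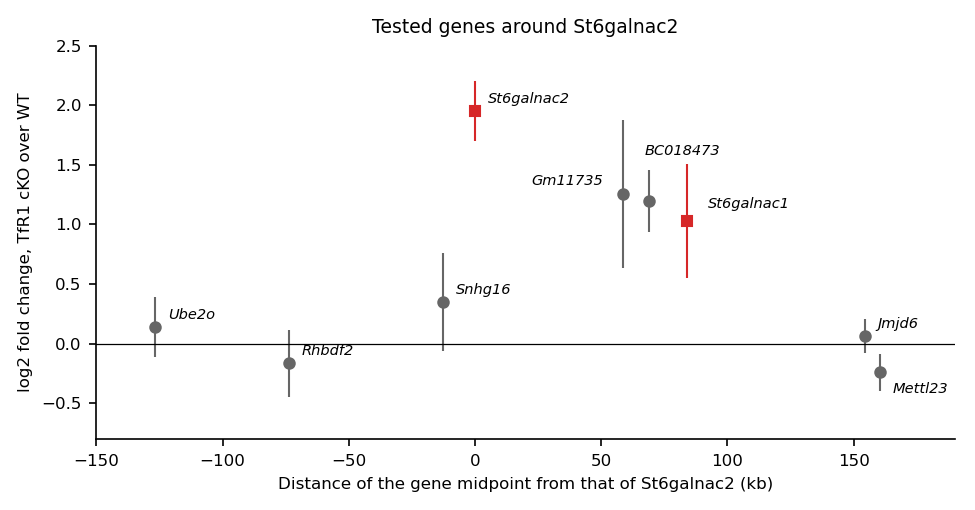
Log2 fold change of TfR1 cKO over WT (y axis, bars 1 standard error, 2 libraries per genotype) for the tested genes around *St6galnac2*, against the distance between gene midpoints in kb (x axis). Red squares are the sialyltransferases and grey circles other genes. *St6galnac2*, *Gm11735*, *BC018473* and *St6galnac1* lie between 1.03 and 1.95, and the 5 other genes between -0.24 and 0.35.

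Of the sialyltransferases, *St6gal1* and *St6galnac4* were called lower in the TfR1 cKO libraries. *St6gal1*, which caps galactose on N-glycans and makes ligands of the siglec CD22, had the highest level per kb of exon among them (38.5 CPM per kb), at 237 and 215 CPM in WT and 154 and 150 CPM in TfR1 cKO. The groups did not overlap and differed 1.48-fold (log2 fold change -0.57, standard error 0.14, unadjusted p = 0.0084, adjusted p = 0.911 in edgeR). Without WT replicate 1 the unadjusted p was 0.054 and without TfR1 cKO replicate 1 it was 0.051, at log2 fold changes of -0.48 and -0.55. *St6gal1* shares 200 bases of exon with *BC106179* in GENCODE vM1. The Treg markers were lower in the same libraries, at log2 fold changes of -0.81 to -0.22, and their part in this value and in that of *St6galnac4* was not tested.

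*St6galnac4* and *St6galnac6* are next to each other on chromosome 2, at chr2:32587078-32599696 and chr2:32599709-32620809 with 12 bases between them, and both add sialic acid to chains that already carry one, on O-glycans and gangliosides. *St6galnac4* was at 50.1 and 43.6 CPM in WT and 28.5 and 34.5 CPM in TfR1 cKO. Its log2 fold change was -0.57 (standard error 0.19, unadjusted p = 0.028, adjusted p = 0.911 in edgeR). That call was lost without WT replicate 1 (-0.45, unadjusted p = 0.15), without WT replicate 2 (-0.67, unadjusted p = 0.053) and without TfR1 cKO replicate 1 (-0.41, unadjusted p = 0.20). *St6galnac6*, at 3.44, 2.72, 1.38 and 1.53 CPM, also showed no overlap of the groups, and its log2 fold change, -1.08 with a standard error of 0.45, missed the limit (unadjusted p = 0.060). The positions of both were looked up after their values were seen.

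Among the remaining sialyltransferases, 3 had both TfR1 cKO libraries below both WT libraries without passing the test, a pattern that 18.9% of all tested genes showed. *St3gal1*, which sialylates the galactose of short O-glycans, was at 35.9 and 29.9 CPM against 20.6 and 26.2 CPM (log2 fold change -0.49, standard error 0.23, unadjusted p = 0.081). *St8sia1*, the synthase of ganglioside GD3, was at 45.4 and 44.1 CPM against 27.7 and 36.6 CPM (-0.48, unadjusted p = 0.062), and *St8sia4*, a polysialyltransferase, at 56.9 and 54.6 CPM against 46.5 and 37.2 CPM (-0.41, unadjusted p = 0.064). These last 2 were named after their values were seen. *St8sia6*, which adds sialic acid to sialylated O-glycans, was at 56.3, 65.1, 75.1 and 63.6 CPM with overlapping groups (0.19, unadjusted p = 0.30). *St3gal2*, *St3gal3*, *St3gal4*, *St3gal6* and *St6galnac3* had log2 fold changes from -0.63 to 0.18 and unadjusted p of at least 0.346. The test detected no change beyond the spread between libraries in them. In *St3gal4* both TfR1 cKO libraries (23.9 and 22.3 CPM) lay above both WT libraries (19.2 and 21.7 CPM), as in 16.0% of all tested genes. Of the 14 tested sialyltransferases, 6 were lower and 3 higher without overlap.

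**Figure D3:**
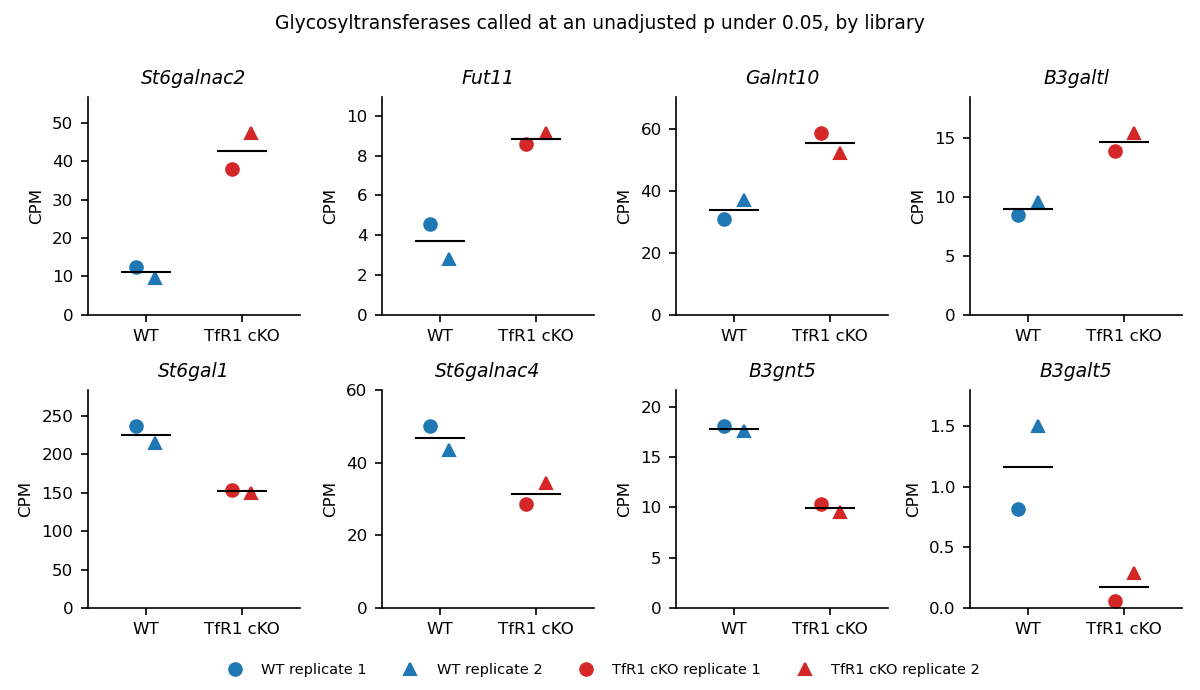
CPM (y axis, starting at 0) of the 8 called glycosyltransferase genes in each library, in blue for WT and red for TfR1 cKO, with circles for replicate 1, triangles for replicate 2 and a line at each mean of 2 libraries. In all 8 panels the genotypes do not overlap, as holds for 16.0% of all tested genes in the higher and 18.9% in the lower direction, and the *B3galt5* axis ends below 2 CPM.

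Among the enzymes that start O-glycans, *Galnt6* had 455 and 596 CPM in WT and 552 and 473 CPM in TfR1 cKO and held 27.0% of the summed CPM of all 58 genes. Its groups overlapped (log2 fold change -0.03, standard error 0.19). *Galnt10*, which prefers peptides that already carry an O-glycan sugar, was called higher, at 30.9 and 37.1 CPM against 58.8 and 52.3 CPM. The means differed 1.63-fold (log2 fold change 0.71, standard error 0.18, unadjusted p = 0.0098, adjusted p = 0.911 in edgeR), and without TfR1 cKO replicate 1 the unadjusted p was 0.059 at a log2 fold change of 0.65. *Galnt11*, at 6.79, 8.53, 11.2 and 10.6 CPM, did not overlap either but did not pass (0.51, unadjusted p = 0.14). The 5 other tested GALNT genes were between -0.16 and 0.23.

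*Gcnt1*, which branches O-glycans and takes part in making selectin ligands on T cells, was at 9.25 and 6.19 CPM in WT and 2.42 and 6.06 CPM in TfR1 cKO. The groups were apart by a narrow margin, and the log2 fold change of -0.87 (standard error 0.54) had an unadjusted p of 0.17. Without TfR1 cKO replicate 2 it was -1.68 (unadjusted p = 0.023) and without TfR1 cKO replicate 1 it was -0.32 (unadjusted p = 0.56), so that its value rests on which TfR1 cKO library is kept. *St6galnac2*, *Gcnt1* and *Fut11* had the widest ranges over the 4 libraries among the glycosyltransferases with a mean of at least 5 CPM.

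*B3gnt5* and *B3galt5* act on the arms of glycolipids and glycoproteins. *B3gnt5*, which starts the lacto-series of glycosphingolipids, had 18.1 and 17.6 CPM in WT and 10.4 and 9.56 CPM in TfR1 cKO, with replicates of each genotype close together. The WT mean was 1.79 times higher (log2 fold change -0.84, standard error 0.24, unadjusted p = 0.017, adjusted p = 0.911 in edgeR). Leaving out any 1 of the libraries kept it between -0.87 and -0.79 with unadjusted p from 0.053 to 0.069. *B3galt5*, which adds galactose to N-acetylglucosamine, rested on 10, 16, 1 and 4 reads (0.819, 1.50, 0.0576 and 0.292 CPM). Its log2 fold change of -2.72 had a standard error of 1.01 (unadjusted p = 0.041, adjusted p = 0.911 in edgeR), it moved between -4.12 and -1.91 with 1 library left out, with unadjusted p from 0.052 to 0.25, and DESeq2 gave unadjusted p = 0.066.

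*B3galtl*, which RefSeq names *B3glct* and which adds glucose to O-linked fucose on thrombospondin repeats in the endoplasmic reticulum rather than the Golgi, was called higher at 8.43 and 9.56 CPM against 13.9 and 15.4 CPM (log2 fold change 0.70, standard error 0.26, unadjusted p = 0.043, adjusted p = 0.911 in edgeR). With any 1 library left out its unadjusted p lay between 0.083 and 0.17, at 0.62 to 0.81. Per kb of exon, the highest of that name group was *B3galt4* (16.0 CPM per kb), which makes ganglioside GM1, at 25.0, 25.9, 27.5 and 22.3 CPM (-0.03, unadjusted p = 0.90). *B3gnt1*, the highest of the *B3gnt* names, was at 27.7, 27.3, 26.1 and 28.7 CPM (-0.01, unadjusted p = 0.98). RefSeq keeps this symbol only as an older name of both *B3gnt2* and *B4gat1*. Because *B3gnt2* has an Ensembl ID of its own here, *B4gat1* is the name left for these counts. *B3gnt2*, the main enzyme of poly-N-acetyllactosamine chains, was at 1.56, 1.03, 2.36 and 2.04 CPM (0.76, standard error 0.51, unadjusted p = 0.20), with groups that did not overlap. In GENCODE vM1 its 3350 bases of exon overlap *Commd1* and *Gm12057* on the same strand and *RP23-242C19.5* on the opposite strand. The shared bases, summed over these genes, come to 2522, so its level is uncertain.

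The fucosyltransferase *Fut11* was called higher. It was counted at 4.58 and 2.81 CPM in WT and 8.59 and 9.13 CPM in TfR1 cKO, a ratio of means of 2.39 (log2 fold change 1.26, standard error 0.38, unadjusted p = 0.021, adjusted p = 0.911 in edgeR). The WT replicates stood further apart than the TfR1 cKO replicates. Without WT replicate 2, the lowest library, the log2 fold change was 0.94 (unadjusted p = 0.073), without WT replicate 1 it was 1.67 (unadjusted p = 0.016), and without TfR1 cKO replicate 2 it was 1.21 (unadjusted p = 0.062). *Fut8*, which adds the core fucose of N-glycans, had the highest level per kb of exon of the fucosyltransferases (5.19 CPM per kb), at 16.6, 15.0, 20.6 and 18.1 CPM and did not pass (0.29, unadjusted p = 0.26). *Fut7*, needed for selectin ligands on leukocytes and named after its values were seen, was at 9.74, 5.16, 4.03 and 5.91 CPM with overlapping groups (-0.59, unadjusted p = 0.25).

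No gene of the *Mgat* and *B4galt* families was called, among 10 tested. Of all tested genes 4.08% were called in either direction, and 10 genes are too few to differ from that share. *Mgat1*, whose product opens the way to hybrid and complex N-glycans, was at 160, 131, 130 and 163 CPM (0.01, standard error 0.19). *Mgat4b*, a low-level branching enzyme at 0.469 to 0.980 CPM, had groups that did not overlap but a log2 fold change of 0.76 with a standard error of 0.69 (unadjusted p = 0.32). *B4galt1*, which adds galactose to the arms of N-glycans, was at 54.4, 104, 89.7 and 53.6 CPM (-0.14, standard error 0.39). Several of these genes were low in WT replicate 1 and TfR1 cKO replicate 2 and high in the other pair. *B4galt3* was at 41.1, 66.1, 76.4 and 45.1 CPM, *B4galt5* at 41.3, 62.7, 57.7 and 38.5 CPM, and *Mgat5*, which makes the branch that galectins bind, at 57.2, 83.8, 88.2 and 49.0 CPM, all 3 named after their values were seen. The other tested genes of these families did not show this pattern. *Mgat1* was higher in WT replicate 1 and TfR1 cKO replicate 2. *B4galt4* was highest in TfR1 cKO replicate 2 alone (5.73, 4.59, 5.07 and 10.4 CPM). Macrophage and proliferation markers were high in WT replicate 1 and TfR1 cKO replicate 2, and the part of those cells in these levels was not tested.

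The called genes were also read without the libraries that carried macrophage markers, as a ratio of 1 library to 1 with no test. TfR1 cKO replicate 1 was 3.05 times WT replicate 2 for *Fut11*, 1.58 times for *Galnt10* and 1.45 times for *B3galtl*. WT replicate 2 was 1.39 times TfR1 cKO replicate 1 for *St6gal1*, 1.53 times for *St6galnac4* and 1.70 times for *B3gnt5*. *B3galt5*, with 1 read in TfR1 cKO replicate 1, moved from -2.72 to -4.70 on the log2 scale. The directions follow from groups that do not overlap and add nothing to the calls. The part of macrophage RNA in the full values was not tested.

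**Figure D4:**
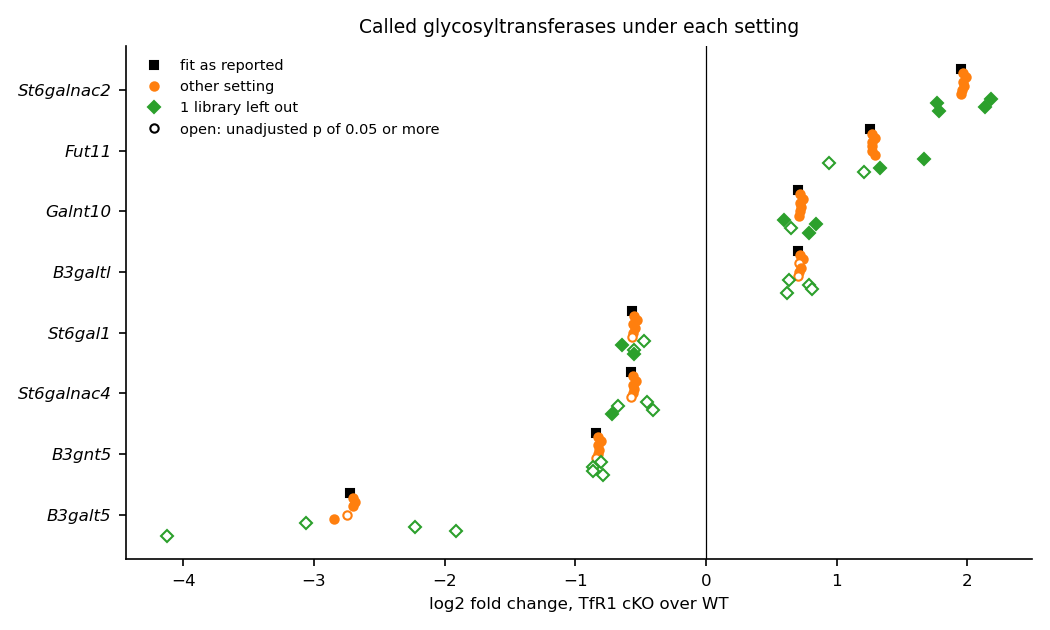
Log2 fold change of TfR1 cKO over WT (x axis) of the 8 called genes (y axis) in the edgeR fit as reported (black), under other settings (orange, 6 for each gene but *B3galt5*, which has 5) and with 1 library left out (green). Open symbols mark an unadjusted p of 0.05 or more. *St6galnac2* has filled symbols only, and *B3galtl*, *B3gnt5* and *B3galt5* have open symbols at every omission of a library.

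Levels of different genes can be compared only per length. Per kb of exon in GENCODE vM1, *Galnt6* led with 134 CPM per kb, followed by *St6gal1* at 38.5, *Mgat1* at 30.8 and *Galnt7*, another GALNT enzyme, at 21.8 CPM per kb. *St6galnac3* stood at 20.7 CPM per kb, on a gene model of only 918 bases, which raises such a value if the transcripts are longer. *Mgat5* and *B4galt7*, which acts on the linker of proteoglycans, followed at 18.1 each. The called genes spanned the range, from *St6gal1* through *St6galnac4* (9.71), *Galnt10* (7.51), *St6galnac2* (3.79), *B3gnt5* (2.68), *B3galtl* (2.46) and *Fut11* (1.88) to *B3galt5* at 0.108 CPM per kb. Of all 58 genes, 4 had a mean of at least 100 CPM, 30 of at least 10 CPM and 13 of less than 1 CPM. Exons of 17 of the 58 share bases with another gene in GENCODE vM1, which makes their counts less certain.

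**Figure D5:**
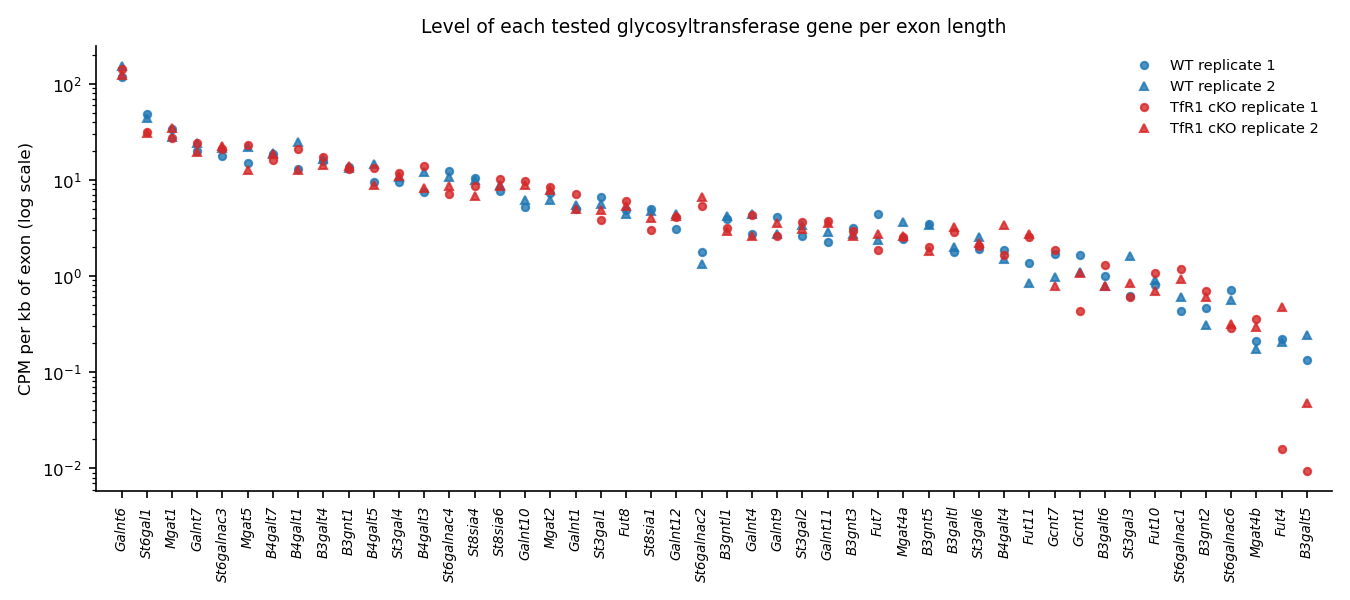
CPM per kb of exon (y axis, log scale) of the 48 tested glycosyltransferase genes in each library, sorted by mean, in blue for WT and red for TfR1 cKO. *Galnt6* stands alone at the top with a mean of 134, and *Fut4* and *B3galt5* at the bottom spread widely between libraries.

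The 10 genes that were not tested had 11 to 50 reads over the 4 libraries and at most 3.07 CPM in any of them. They were *B3galt2*, *B3gnt8*, *B3gnt9-ps*, *B4galt6*, *Fut2*, *Galnt2*, *Galnt3*, *Galnt14*, *Gcnt2* and *St3gal5*. *Galnt3* had 8, 0, 0 and 42 reads, in the libraries with macrophage markers alone. The filter removed them, so they have no fold change in the fit as reported. When every gene with a count was fitted, *Galnt3* was called higher and *Galnt14* lower at an unadjusted p under 0.05. *Galnt2* had 8, 5, 2 and 0 reads. In GENCODE vM1 its 4282 bases of exon share 4008, summed over the overlapping genes, with *Gm20388* (same strand) and *1810008B01Rik* (opposite strand). Whether depth or the assignment of reads keeps its count low was not tested.

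Of the 57 glycosyltransferase genes with a RefSeq position, 5 tested ones lie on chromosome 16, which also holds *Tfrc*, and 3 of these were called lower. They were *B3gnt5* (chr16:19760192-19772760, 12.9 Mb from *Tfrc*), *St6gal1* (chr16:23224729-23360350, 9.3 Mb) and *B3galt5* (chr16:96235801-96319859, 63.7 Mb). The other 2, *B4galt4* (6.1 Mb) and *St3gal6* (25.9 Mb), were not called, at log2 fold changes of 0.58 and -0.08. Of 42 tested genes of the group on other chromosomes, 1 was called lower and 4 higher. Over all tested genes, 4.27% of 351 on chromosome 16 were called lower and 2.56% higher, against 2.58% and 1.52% of 10984 elsewhere. Of the 201 within 20 Mb of *Tfrc*, 4.98% were called lower and 1.99% higher. This count by chromosome was made after the calls were known. *St6gal1* and *B3gnt5* were named in the choice of the group, and *B3galt5* rested on 10, 16, 1 and 4 reads. The 3 of 5 is therefore no test of the chromosome. Sequence linked to the floxed allele and the deletion itself cannot be told apart. The floxed line was backcrossed to C57BL/6, per the reporting summary.

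Promoters are shown for 4 of the called genes that have 1 start in the RefSeq table of GRCm38.p6, because the study examined HIF transcription factors and c-Maf in Treg cells. Each run is 250 bases before to 50 after the start, 5′ to 3′ on the plus strand, the strand of each gene, and capitals mark the core of the HIF site (ACGTG or GCGTG on either strand, so CACGT or CACGC in the plus strand). The windows are chr14:20694718-20695017 and chr11:57645192-57645491 for the genes called higher and chr2:32586828-32587127 and chr16:19759984-19760283 for those called lower.
Fut11: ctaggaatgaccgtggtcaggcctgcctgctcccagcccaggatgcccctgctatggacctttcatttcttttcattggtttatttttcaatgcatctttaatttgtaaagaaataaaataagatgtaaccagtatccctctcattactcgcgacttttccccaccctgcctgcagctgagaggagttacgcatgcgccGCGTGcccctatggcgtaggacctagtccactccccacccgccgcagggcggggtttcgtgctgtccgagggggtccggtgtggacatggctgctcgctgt
Galnt10: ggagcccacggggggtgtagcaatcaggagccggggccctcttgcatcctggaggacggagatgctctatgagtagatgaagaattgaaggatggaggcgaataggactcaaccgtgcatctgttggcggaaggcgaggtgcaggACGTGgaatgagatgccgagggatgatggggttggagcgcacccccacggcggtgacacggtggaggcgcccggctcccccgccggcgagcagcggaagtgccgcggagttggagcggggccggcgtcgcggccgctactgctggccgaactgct
St6galnac4: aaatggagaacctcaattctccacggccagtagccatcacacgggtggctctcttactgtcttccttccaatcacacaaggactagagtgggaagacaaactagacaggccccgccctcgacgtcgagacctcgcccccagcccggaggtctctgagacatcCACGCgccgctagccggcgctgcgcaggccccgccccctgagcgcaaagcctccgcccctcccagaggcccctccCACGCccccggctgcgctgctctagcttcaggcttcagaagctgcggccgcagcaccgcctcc
B3gnt5: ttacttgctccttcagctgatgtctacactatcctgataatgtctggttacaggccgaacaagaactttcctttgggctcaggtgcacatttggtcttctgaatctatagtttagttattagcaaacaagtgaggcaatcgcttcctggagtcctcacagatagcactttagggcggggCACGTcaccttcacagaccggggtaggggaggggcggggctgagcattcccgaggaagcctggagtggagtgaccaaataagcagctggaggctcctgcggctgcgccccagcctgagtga
The windows of *Fut11*, *Galnt10* and *B3gnt5* hold 1 core each and that of *St6galnac4* holds 2. *B3galtl* also has 1 start, and its window (chr5:149677980-149678279), which is not shown, holds 0. That every promoter shown holds a core follows from leaving *B3galtl* out and is no result. The letters occur in genes called in either direction. A core is held by 43.8% of all 32851 promoters of this length, by 37 of the 63 promoters of 44 glycosyltransferase genes (58.7%) and by 9 of the 11 promoters of 7 called genes. *St6gal1* and *B3galt5* have 3 promoters each in this count, and *St6galnac2* has none in it. The half-site of Maf factors (TGCTGA on either strand) was found in 19.5% of all promoters, 16 of 63 and 3 of 11, and the E-box CACGTG, which contains a HIF core, in 7.15%, 5 of 63 and 1 of 11. A match describes letters in these windows and was not tied to binding.

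Other genes of the glycosylation pathway are read against 1.60% called higher and 2.48% called lower among all tested genes. Of 21 tested genes for sugar donors and their transporters, 0 were called higher and 1 lower, *Fpgt*, which makes GDP-fucose in the salvage route, at 24.7 and 24.6 CPM in WT and 14.9 and 8.98 CPM in TfR1 cKO (log2 fold change -1.04, standard error 0.31, unadjusted p = 0.020, adjusted p = 0.911 in edgeR). Of 16 other Golgi glycan enzymes and 10 genes for glycan removal, 0 were called in either direction. Of 15 tested glycan carriers and lectins, *Cd44*, a hyaluronan receptor that carries glycans, was called lower at 132 and 117 CPM against 65.4 and 99.2 CPM (-0.60, standard error 0.23, unadjusted p = 0.049, adjusted p = 0.911 in edgeR). The median log2 fold changes of the 4 lists lay between -0.12 and 0.10.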

How the data were processed

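RNA of 2 WT and 2 TfR1 cKO libraries of sorted Treg cells was analysed, grouped by the sample labels. The authors trimmed the reads with Trim Galore 0.6.7, aligned them with STAR 2.7.9a and deposited whole-number counts per Ensembl gene from featureCounts, not normalized and not pooled, per the submitters' processing notes. Those notes name mm10 and the study's methods mm9. Of the gene IDs, 14889 are numbered above the highest in GENCODE vM1 (mm9), 3759 of them with counts. The annotation release, strand and treatment of multiply mapped reads were not given in the sources used here, and the study tested with DESeq2.

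Symbols were found for 32799 of 47729 gene rows. After filterByExpr and TMM scaling, edgeR 4.0.16 in R 4.3.3 fitted the genotype as its only term (quasi-likelihood test, two-sided), and p-values were adjusted over all tested genes by the Benjamini-Hochberg method. Standard errors were taken as the log2 fold change over the root of F. An exact permutation test of 2 against 2 libraries cannot go below p = 0.333. DESeq2 1.42.0, other scalings, other filters, a replicate block and the omission of each library were alternatives, and the scripts were tested on simulated data. Libraries had totals of 10841939 to 17278448 counts. Over all tested genes, replicates differed beyond counting error (chi-square per degree of freedom 31.1 for WT and 51.0 for TfR1 cKO). Whether replicate spread or counting error limits the called genes was not tested. Unused columns of sample values numbered 0.

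The glycosyltransferases and the context and marker lists were chosen with earlier results of these data known. Named glycosyltransferases were *St6galnac2*, *St6gal1*, *B3gnt5*, every one with an unadjusted p under 0.05 in edgeR or an adjusted p under 0.05 in DESeq2, the most abundant of each family, those whose groups did not overlap and whose log2 fold change was 0.5 or more in either direction, and the 3 with the widest range over libraries at a mean of at least 5 CPM. Others are marked in the text. Positions and promoters are from RefSeq (GRCm38.p6), matched by symbol for 57 of 58 genes, and exon lengths and overlaps from GENCODE vM1, matched by ID.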

Additional observations from a re-analysis of the deposited data

How the results depend on the processing

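*St6galnac2* kept an unadjusted p under 0.05 in all 10 alternative fits, at log2 fold changes of 1.77 to 2.18, and the other 7 called genes each lost the call in at least 1 of them. With 2 libraries per genotype, a fit that leaves 1 out assumes that the lone library varies like the other group. Low counts limit *B3galt5* and the 10 untested genes, and whether depth or the assignment of reads sets them was not tested. Causes of the changes below were not tested, except that filters change how many genes are tested.

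Against 200 genes called higher and 311 lower at an unadjusted p under 0.05, and 0 after adjustment, fitting every gene with at least 1 count gave 650 higher, and 167 higher and 95 lower after adjustment, with 1 glycosyltransferase higher. DESeq2 gave 6 higher and 28 lower after adjustment, with 1 glycosyltransferase higher. With total library size only, the median of the glycosyltransferases was 0.019. With 1 library left out, counts ran from 169 to 353 (higher) and 131 to 382 (lower) over all genes, with 0 after adjustment, from 2 to 3 (higher) and 0 to 4 (lower) among glycosyltransferases, and their median from -0.12 to 0.16.

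Same-numbered libraries deviated in opposite directions over all tested genes (correlation -0.609). The libraries high in macrophage and proliferation markers, WT replicate 1 and TfR1 cKO replicate 2, carry different numbers. This value therefore cannot show whether the numbers mark pairs. The replicate block gave 70 genes higher and 141 lower, among glycosyltransferases 3 higher (*Fut11*, *Galnt10*, *St6galnac2*) and 1 lower (*B3galt5*). A crossed pairing, added after the data were seen, gave 596 higher and 519 lower, and 150 and 210 after adjustment, of which 2 and 1 were glycosyltransferases.

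Genes near 0 changed sign. *B3gnt1* was at 0.0080 with DESeq2 size factors, 0.031 with total library size, 0.0056 with every gene, 0.016 with at least 10 counts in every library and 0.0053 in DESeq2. With total library size *B3galt4* was at 0.0075 and *Galnt6* at 0.0018. With 1 library left out, *B3gnt1* ran from -0.080 to 0.093, *B3galt4* from -0.15 to 0.11, *Galnt6* from -0.20 to 0.17, *Mgat1* from -0.16 to 0.20 and *B4galt1* from -0.53 to 0.39.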
